A study of Mus musculus with 2 samples.

Results

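The genes described here encode the nuclear subunits of the mitochondrial respiratory chain and of ATP synthase, in HT22 cells with and without J147. They were taken as all probe sets whose single annotated gene symbol starts with Ndufa, Ndufb, Ndufc, Ndufs or Ndufv and a digit, with Uqcr, with Cox4, Cox5, Cox6, Cox7 or Cox8, or with Atp5, or is one of the 4 succinate dehydrogenase genes Sdha to Sdhd. The rule gave 164 probe sets of 81 genes, out of 45037 probe sets and 18193 genes on the array. Complexes were assigned by the start of the symbol. In this way 35 genes were counted in complex I, 4 in II, 8 in III, 17 in IV and 17 in V. HT22 cells are an immortalized mouse neuronal line of hippocampal origin, and J147 is the neurotrophic compound under study. Cells in DMEM with 10% FCS received J147 or the DMSO vehicle for 1 h, and RNA of each condition was hybridized to 1 Affymetrix mouse genome GeneChip. The J147 concentration is 10 μM in the methods of the paper and 10 mM in the sample labels. With 1 array per condition there is no replicate check, no p-value can be given, and an effect of J147 and a chance difference of the 2 cultures cannot be told apart. These are values of the mRNA only, and neither protein nor respiration was measured on the arrays.

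The respiratory chain passes electrons from NADH, through complex I, and from succinate, through complex II, to ubiquinone. Complex III hands them on to cytochrome c and complex IV to oxygen, and the proton gradient built by complexes I, III and IV drives ATP synthase, which is called complex V here. Most subunits are encoded in the nucleus and imported into mitochondria, while the remaining core subunits of complexes I, III, IV and V are encoded by mitochondrial DNA. Neurons depend heavily on this pathway for ATP. In later biochemical work, which is background and not a result of these data, the alpha subunit of ATP synthase was described as a protein that J147 binds. None of the genes of the annotation used here carries a symbol of the mitochondrial genome, so the subunits encoded there are not analysed here.

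The values are gcRMA intensities, deposited on the log2 scale. Both arrays were brought to a median of 100, and probe sets whose mean scaled intensity exceeded 100 are called scored. The brightest probe set stood for its gene, and a difference is log2 J147 minus log2 vehicle. Values that are identical as deposited come out at -0.0046 after scaling, so directions were counted on the deposited values. Of the 8 neuron markers Map2, Snap25, Syt1, Rbfox3, Tubb3, Stmn2, Nefl and Dcx, only Tubb3 stood more than 0.01 above the lowest value of the table, while the remaining 7 did not on either array. At the lowest value were also 3 of 5 astrocyte, 4 of 5 microglia and 4 of 4 listed oligodendrocyte markers, but 0 of 6 fibroblast markers. The largest difference among the fibroblast markers was -0.48, of the growth factor receptor gene Pdgfrb. Control probe sets had median log2 differences of 0.134 (hybridization spikes), -0.153 (labelling spikes) and -0.629 (18S rRNA). The part of the markers and controls in the results was not tested.

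Genes of the respiratory chain were little different between the arrays, with 1 exception, Cox7c. Of the 81 genes 75 were scored, and 1 of these was at least 1.5-fold higher with J147, where 0.556% of all 10611 scored genes were. None was at least 1.5-fold lower, where 0.81% of all scored genes were. In probe sets, 143 of the 164 were scored, 2 were at least 1.5-fold higher, against 0.856% of all scored probe sets, and none was lower, against 0.781%. Both of these probe sets are those of Cox7c. At 1.2-fold, 2 genes were higher, Cox7c and Ndufb4, against 3.6% of all scored genes, and none was lower, against 6.23%. Of the probe sets, 3 were higher at 1.2-fold, against 5.04%, and 2 were lower, of Ndufs4 and Ndufb2, against 6.09%. At 2-fold no gene was higher or lower, against 0.066% and 0.0754% of scored genes, and no probe set was, against 0.0754% and 0.071%. The median log2 difference over the 75 genes was -0.014, with quartiles of -0.05 and 0.02, and over all scored genes it was -0.0046, with quartiles of -0.08 and 0.04. The SD of the differences was 0.13 among the 75 genes and 0.07 without Cox7c. It was 0.11 among the 998 scored genes that lay within the interquartile range of the levels of the 75. None was left out of those 998, whose differences ran from -1.09 to 0.85, so 0.07 and 0.11 are not alike. The median size of the difference, without its sign, was 0.038 for the subunit genes and 0.052 for those 998. Of those 998 genes 98.1% were within 1.2-fold, as were 97.3% of the subunit genes.

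**Figure D1:**
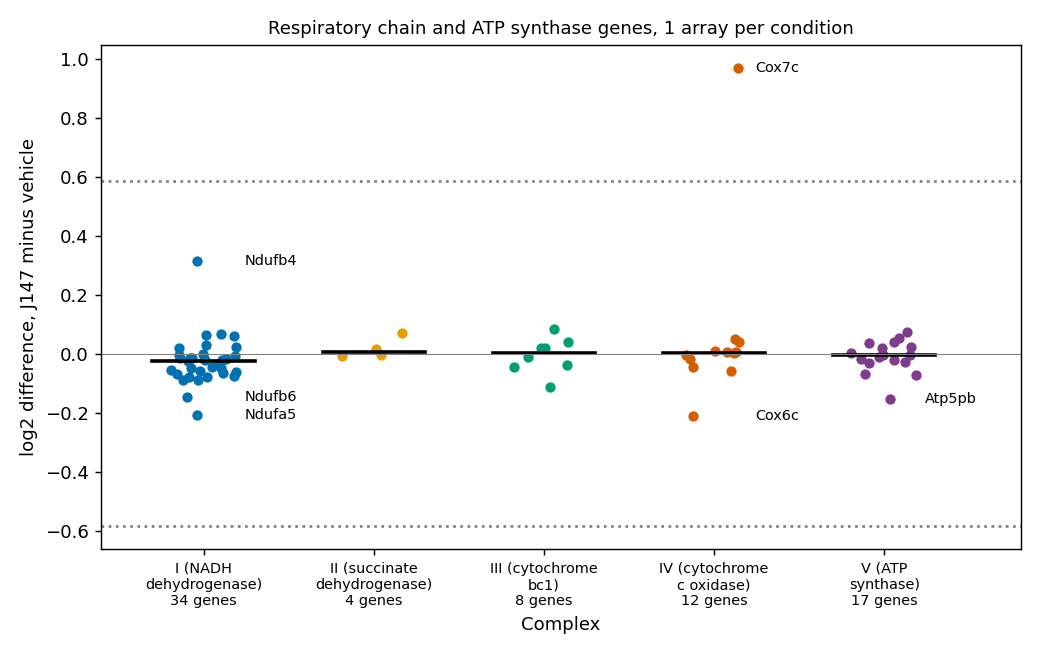
Log2 difference, J147 minus vehicle (vertical axis), of each of the 75 scored genes (points) of complexes I to V (horizontal axis), 1 array per condition, with the median of each complex as a black bar and dotted lines at 1.5-fold. Cox7c, at 0.97, is the 1 gene beyond a dotted line, and the next largest differences, of Ndufb4, Cox6c, Ndufa5, Atp5pb and Ndufb6, are named.

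The levels were read first as a description. Levels of different probe sets also depend on how well each probe binds, so they do not rank the mRNAs. Of the 75 scored genes, 69 had a deposited log2 intensity above 10 on both arrays, in a table whose lowest value is 2.234. The median log2 intensities of the scored genes of complex I were 12.14 with vehicle and 12.17 with J147. Complex II had 10.91 and 10.92, complex III 12.30 and 12.27, complex IV 13.23 and 13.25, and complex V 12.60 and 12.59, in the same order of arrays. The brightest probe set was that of Cox6a1, a subunit of complex IV, with scaled intensities of 495353 with vehicle and 497728 with J147. The 6 genes below a log2 intensity of 10 were Ndufb4, Ndufb1, Ndufs5, Cox6a2, Cox7b2 and Cox7c. For Ndufb4 and Ndufs5, bright probe sets exist that are annotated to several genes and were therefore left out by the rule. That of Ndufs5 and its pseudogene Ndufs5-ps had log2 intensities of 13.14 with vehicle and 13.07 with J147, and the brighter of the 2 sets of Ndufb4, Ndufb4b and Ndufb4c had 12.02 and 11.87. The rule left out 9 such probe sets. The remaining 6 of the 81 genes, Ndufa4l2, Cox4i2, Cox6b2, Cox7a1, Cox8b and Cox8c, were not scored.

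**Figure D2:**
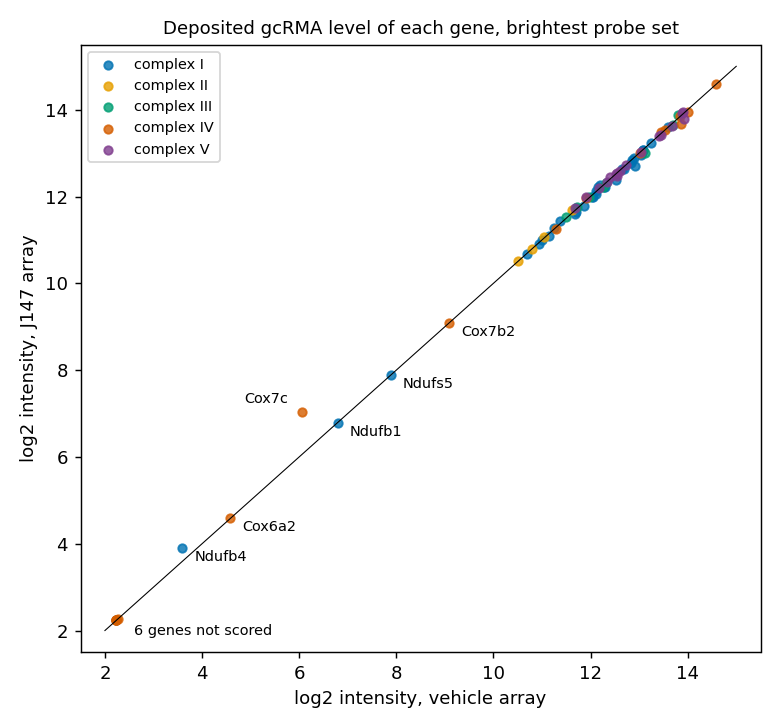
Deposited log2 gcRMA intensity of the brightest probe set of each of the 81 genes on the vehicle array (horizontal axis) and the J147 array (vertical axis), coloured by complex, with the line of equal values. Most points lie on the line above 10, 6 scored genes lie below 10 and are named, and Cox7c stands off the line at 6.07 with vehicle and 7.04 with J147.

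Respiratory chain genes are known for promoters with sites of the factors NRF1, GABPA of the ETS family and YY1. Promoters from RefSeq, build GRCm38.p6, from 250 bases before to 50 bases after the start, were at hand for 66 of the 81 genes. Searched on both strands, the NRF1 motif, GCGCA and GCGC with any 1 base between them, was in 15 of the 66 genes, 22.7%, against 12.5% of 8660 scored genes of the arrays and 5.19% of all 27025 genes in the promoter table. The ETS motif CCGGAAG was in 17 genes, 25.8%, against 21.5% and 9.93%, and the YY1 motif AANATGGC in 15 genes, 22.7%, against 10.7% and 6.96%. At least 1 of the 3 was in 41 genes, 62.1%, against 37.8% and 19.4%. The median share of G and C was 58.3% in promoters of subunit genes, 61% in those of scored genes and 52.7% in all. Overlapping matches of different motifs were each counted, and a match is a run of letters and not a measured binding site. The 41 genes with a match had a median log2 difference of -0.02 and the 22 scored genes without one had -0.01.

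The promoter with the most matches in its last 200 bases before the start is printed for each complex, with ties taken in the order of the alphabet, to show how the motifs lie in this family. That of Cox7c is added because the gene had the largest difference. Capitals mark the matches on either strand, and the sequences run 5′ to 3′ on the strand of the gene.
Ndufb4, chr16:37654369-37654568, minus strand: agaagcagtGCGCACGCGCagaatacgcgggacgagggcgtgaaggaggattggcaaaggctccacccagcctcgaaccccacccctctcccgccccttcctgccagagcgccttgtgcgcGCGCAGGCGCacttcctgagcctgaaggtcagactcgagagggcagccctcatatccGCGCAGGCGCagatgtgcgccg
Sdha, chr13:74350241-74350440, minus strand: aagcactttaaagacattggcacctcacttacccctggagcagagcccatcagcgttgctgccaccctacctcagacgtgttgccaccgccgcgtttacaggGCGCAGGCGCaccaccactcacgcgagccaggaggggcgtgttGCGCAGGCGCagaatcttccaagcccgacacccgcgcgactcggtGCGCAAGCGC
Uqcr11, chr10:80406822-80407021, minus strand: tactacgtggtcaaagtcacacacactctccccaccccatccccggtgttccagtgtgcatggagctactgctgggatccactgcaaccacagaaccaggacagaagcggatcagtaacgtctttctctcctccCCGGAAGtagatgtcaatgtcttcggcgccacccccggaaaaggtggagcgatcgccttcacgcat
Cox6a1, chr5:115348959-115349158, minus strand: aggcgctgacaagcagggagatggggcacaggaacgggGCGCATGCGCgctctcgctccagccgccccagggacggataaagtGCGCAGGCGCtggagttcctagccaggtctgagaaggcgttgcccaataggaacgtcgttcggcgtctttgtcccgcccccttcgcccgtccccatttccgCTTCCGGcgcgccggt
Atp5h, chr11:115419920-115420119, minus strand: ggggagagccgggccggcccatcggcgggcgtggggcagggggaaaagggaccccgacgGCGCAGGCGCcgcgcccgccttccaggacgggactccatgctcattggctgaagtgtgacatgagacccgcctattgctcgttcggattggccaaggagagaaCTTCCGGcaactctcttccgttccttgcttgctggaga
Cox7c, chr13:86046796-86046995, minus strand: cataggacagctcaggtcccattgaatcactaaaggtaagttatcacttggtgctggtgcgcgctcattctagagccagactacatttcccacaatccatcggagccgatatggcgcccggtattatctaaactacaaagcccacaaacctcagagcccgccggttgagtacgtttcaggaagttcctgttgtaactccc
Ndufb4 and Sdha each hold 3 NRF1 matches in these bases. Cox6a1 holds 2 NRF1 matches and 1 ETS match, Atp5h 1 of each, and Uqcr11 1 ETS match. The promoter of Cox7c holds none of the 3 motifs in its 300 bases, which says only that these letters are not in this window.

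Cox7c encodes subunit VIIc of cytochrome c oxidase, a small nuclear-encoded subunit in the membrane part of complex IV. Its brighter probe set, 1459885_s_at, had a scaled intensity of 1361 with vehicle and 2665 with J147, 1.96-fold higher with J147. Its other probe set, 1459884_at, had 347 with vehicle and 570 with J147, 1.64-fold higher. Both probe sets were thus higher with J147, by log2 differences of 0.97 and 0.72. Among the 500 scored probe sets nearest in level, the SD of the log2 difference was 0.23 for the brighter probe set, and 3 of them had a difference of that size or more. For the other probe set, 13 of the 500 nearest did. By size of the difference, Cox7c was at place 21 of all scored genes and the next subunit gene, Ndufb4, at place 720. The suffix _s_at marks probes that match transcripts of more than 1 gene, and the RefSeq table holds a pseudogene, Cox7c-ps1. The signal of the gene and that of a copy cannot be told apart by that probe set. Both probe sets of Cox7c were dimmer than the brightest probe set of any of the 69 genes above a log2 intensity of 10, and no other probe set is annotated to Cox7c.

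The other 11 scored genes of complex IV, the enzyme that reduces oxygen, had log2 differences from -0.21 to 0.05, and the median of all 12 was 0.0035. Cox6c had the lowest, by its probe set 1434491_a_at, with scaled intensities of 303746 with vehicle and 262573 with J147. Of the 500 neighbours of this probe set in level, 8 had a difference of that size or more. The second probe set of Cox6c, 1415970_at, had 232766 with vehicle and 237339 with J147. Its log2 difference was 0.03, which 295 of its 500 neighbours matched or passed, so the pair gave opposite directions. Cox5a, a subunit on the matrix side of the enzyme, had a difference of -0.06, with 335218 with vehicle and 321741 with J147. Cox4i1, which encodes the common isoform of subunit IV, had 299732 with vehicle and 301861 with J147, and Cox5b had a difference of -0.02. Cox7a2l, which encodes a factor that joins complex III with complex IV, had a difference of -0.04.

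Several subunits of complex IV exist as isoforms for particular tissues, and the forms known from heart and skeletal muscle or from testis were mostly at the lowest value of the table. Cox7a1 and Cox8b, both muscle isoforms, were at or near the lowest value, while their common counterparts Cox7a2 and Cox8a had scaled intensities of 225870 and 78309 for vehicle. Cox7a2 had 233831 for J147 and Cox8a 80450. The muscle isoform Cox6a2 had one probe set at the lowest value and one at 483 with vehicle and 484 with J147. Of 6 genes that mark striated muscle 4 were within 0.01 of the lowest value, and the exceptions were Des, with identical deposited log2 intensities of 3.29, and Tnnt2, at 5.82 with vehicle and 5.80 with J147. Cox6b2 and Cox8c, known from testis, were at the lowest value on both arrays, as was Cox4i2, the isoform of subunit IV known from lung and from hypoxia. Cox6b1, the common counterpart of Cox6b2, had 240063 with vehicle and 240429 with J147. The exception was Cox7b2, also known from testis, with scaled intensities of 10979 with vehicle and 10944 with J147, identical as deposited at 9.08. In complex I, Ndufa4l2, known as a target of hypoxia signalling, was likewise at the lowest value. Its relative Ndufa4, whose product was later assigned to complex IV, had 196161 with vehicle and 193643 with J147. By its symbol, Ndufa4 is counted in complex I here. No value at the lowest level shows that an mRNA was absent.

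Complex I takes electrons from NADH, and its genes were lower with J147 more often than higher, by small amounts. As deposited, 25 of its 34 scored genes were lower on the J147 array, 8 were higher and 1 was identical. Of all scored genes 46.6% were lower and 38.8% higher, and the remainder were identical. Of the 998 scored genes within the interquartile range of the subunit levels, 46.5% were lower and 49.8% higher. The median log2 difference of complex I was -0.02, with quartiles of -0.06 and -0.0054. The 6 scored genes of core subunits, which carry the flavin and the iron-sulfur clusters or help to bind ubiquinone, had a median of -0.03, and the 28 of accessory subunits had -0.02. Of the core genes, Ndufv1 was lower by all of its 3 probe sets, each with a difference of -0.07, and Ndufv2 by all of its 3, from -0.08 to -0.04. Ndufs1 had a difference of -0.04, Ndufs8 -0.02, Ndufs7 0.02 and Ndufs3 0.06. The 6 scored probe sets of Ndufs8 ran from -0.03 to 0.06, with a mean of 0.02, and the 2 of Ndufs7 were both higher. The lowest values of the accessory subunits were those of Ndufa5, with scaled intensities of 156023 with vehicle and 135187 with J147, and of Ndufb6, with 119866 with vehicle and 108172 with J147. Their log2 differences were -0.21 and -0.15. Of the 500 neighbours in level, 15 had a difference of that size or more for Ndufa5 and 52 for Ndufb6. The second probe set of Ndufa5 had identical values as deposited, and that of Ndufb6 a difference of -0.04. Ndufb4 had the highest value, 0.31, at a scaled intensity of 244 with vehicle and 304 with J147. Of its 500 neighbours in level 72 had a difference of that size or more. The 2 bright probe sets that Ndufb4 shares with Ndufb4b and Ndufb4c had differences of -0.15 and -0.07, opposite in direction to the dim one.

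The count for complex I was nearer to that of all genes with another choice of probe sets. When only probe sets with the plain suffix _at were read, 27 genes of complex I remained, of which 13 were lower, 11 were higher and 3 were identical. These are 48.1% lower and 40.7% higher, against 45.0% and 38.8% of all 9182 genes read in that way. The median deposited difference of the 27 genes was 0, as was that of the 9182. The same 27 genes by their brightest probe set of any suffix had 18 lower and 8 higher, 66.7% and 29.6%, against 47.0% and 38.5% of the same 9182 genes. Both the loss of 7 genes and the exchange of probe sets went with the move. By the mean of the scored probe sets of each gene, 25 of 34 were lower and 9 were higher, 73.5% and 26.5%, against 47.1% and 41.1% of all scored genes. Over the scored probe sets of all 5 complexes, the median log2 difference was -0.04 for the 37 with the suffix _a_at, which match several transcripts of 1 gene. It was -0.02 for the 26 with _x_at, -0.01 for the 17 with _s_at and -0.0046 for the 63 with a plain _at. Over all scored probe sets the median was -0.0046 for each of these suffixes. Whether the suffix itself bears on the values of complex I was not tested. All gene differences of complex I except that of Ndufb4 were within 1.2-fold.

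Of 44 genes with at least 2 scored probe sets, 43 had probe sets that differed among themselves by less than 0.3 log2 units, and the median range was 0.07. For 16 of the 44 the probe sets lay on both sides of 0. The exception past 0.3 was Ndufs4, an accessory subunit of complex I near the site where NADH is oxidized. Its dim probe set 1418117_at had 1573 with vehicle and 1177 with J147, a log2 difference of -0.42, and its brightest, 1448959_at, had 41795 with vehicle and 41070 with J147, a difference of -0.03. Of the 500 neighbours of the dim one in level, 49 had a difference of that size or more.

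**Figure D3:**
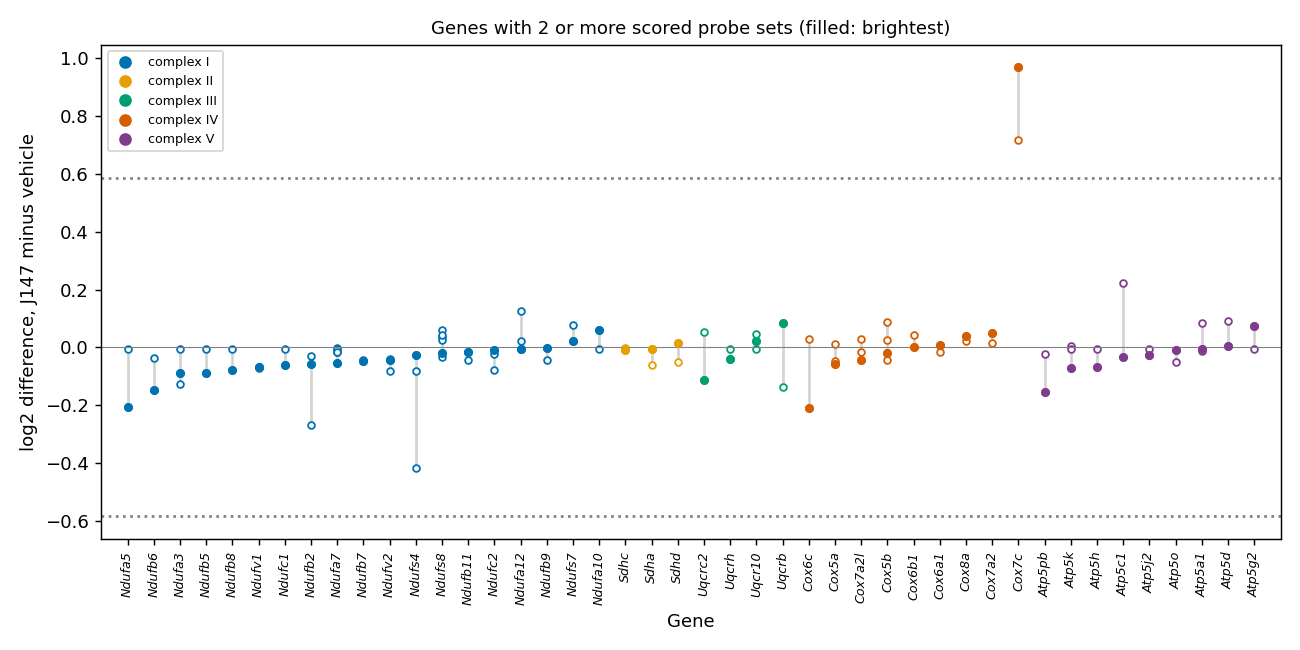
Log2 difference, J147 minus vehicle (vertical axis), of each scored probe set (circles; filled for the brightest of a gene) of the 44 genes with at least 2 of them (horizontal axis), 1 array per condition, with dotted lines at 1.5-fold. Both circles of Cox7c lie above 0.7, and the longest line is that of Ndufs4, from -0.42 to -0.03.

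Complex II, succinate dehydrogenase, links the tricarboxylic acid cycle to the chain, and all of its subunits are encoded in the nucleus. Its 4 genes had differences from -0.0092 to 0.07. Sdhb, the iron-sulfur subunit, had 63812 with vehicle and 67069 with J147, a difference of 0.07. Sdha, the flavoprotein subunit, had identical values as deposited in its brightest probe set. The membrane anchors Sdhc and Sdhd had differences of -0.01 and 0.02. The second scored probe sets of Sdha, Sdhc and Sdhd had -0.06, -0.0038 and -0.05. By the mean of the scored probe sets 3 of the 4 genes were lower and 1 was higher, against 47.1% and 41.1% of all scored genes. Complex III had a median of 0.0029 over 8 genes, of which 4 were higher and 4 lower. Uqcrc2, a core protein, had 180475 with vehicle and 167014 with J147, a difference of -0.11, while its second probe set had 0.05. Uqcrb, which helps to bind ubiquinone, had 288729 with vehicle and 305770 with J147, a difference of 0.08, and its second probe set had -0.14. The core protein gene Uqcrc1 had a difference of 0.04 and Uqcrfs1, which encodes the Rieske iron-sulfur protein, -0.01. The gene of the small subunit Uqcr11 had a difference of -0.04. Uqcrb and Uqcrc2 thus each had probe sets with opposite directions.

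Complex V, ATP synthase, had a median of -0.0046 over 17 genes, of which 7 were higher, 8 lower and 2 identical as deposited. In the catalytic F1 part, the alpha subunit gene Atp5a1 had identical values as deposited in its brightest probe set, with a log2 intensity of 12.73. Its other 2 probe sets had differences of 0.08 and -0.01. The beta subunit gene Atp5b had 308061 with vehicle and 312393 with J147, a difference of 0.02. Atp5c1 (gamma) had -0.03, Atp5d (delta) 0.0039 and Atp5e (epsilon) 0.04, so the F1 genes ranged from -0.03 to 0.04. Atp5c1 also has a dim probe set with a difference of 0.22, from 560 for vehicle to 653 for J147, which 127 of its 500 neighbours in level matched or passed. The 4 genes of the peripheral stalk, which holds F1 still, were all lower with J147, with a median of -0.05. Among all scored genes 46.6% were lower. Of the 4 stalk genes, Atp5pb had 316499 with vehicle and 284496 with J147, a difference of -0.15. Atp5h had -0.07, Atp5j -0.02 and Atp5o -0.01. For the brightest probe set of Atp5pb, 30 of the 500 neighbours in level had a difference of that size or more. The second probe set of Atp5pb had -0.02, which 354 of its 500 neighbours matched or passed. The 3 genes of subunit c, Atp5g1, Atp5g2 and Atp5g3, whose mature proteins form the rotating ring, were all higher, with differences of 0.05, 0.08 and 0.04. These values are smaller than the SD of the 500 nearest probe sets in level, which was 0.10, 0.12 and 0.07. Among all scored genes 38.8% were higher, and 49.8% of the 998 within the interquartile range of the subunit levels. The second scored probe set of Atp5g2 had identical values as deposited. The 5 genes of other membrane subunits had a median of -0.02, with the lowest value, -0.07, in Atp5k. By plain _at probe sets 2 of 3 stalk genes were lower and 1 was identical. The stalk and the ring were singled out after their values were seen.

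Genes around the chain were set beside the complexes. Since 0.556% of all scored genes were at least 1.5-fold higher and 0.81% lower, lists of this size hold few or no such genes at the background rate, and a count of 0 says nothing about them. Of 15 scored electron and metabolite carriers and linked genes, including cytochrome c and the adenine nucleotide translocases, the median was -0.01. The largest differences were 0.15 for the outer membrane channel gene Vdac2 and -0.14 for Etfdh, which passes electrons from fatty acid oxidation to ubiquinone. The 46 scored assembly factors had a median of -0.03. Sco2, which delivers copper to complex IV, had 8214 with vehicle and 11604 with J147, a difference of 0.50. Its probe set has the suffix _s_at, so the signal may not be of Sco2 alone. The complex I factor Ndufaf3 had -0.33 at a low level, from 782 to 622. The SD of the 500 nearest probe sets in level was 0.15 for Sco2 and 0.24 for Ndufaf3. The 24 scored genes of pyruvate entry and the tricarboxylic acid cycle had a median of -0.01. The phosphatase gene Pdp1, which activates pyruvate dehydrogenase, had 0.25, and the kinase gene Pdk1, which inhibits it, had -0.25. The 20 scored regulators of mitochondrial gene expression had a median of -0.02, and no gene of these 4 lists was past 1.5-fold. Mterf1a, of a family that binds mitochondrial DNA, had -0.49, from 2110 to 1504, and Pprc1, a coactivator of the PGC-1 family, had 0.25, from 16881 to 20132.

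Mitochondrial ribosomal proteins, of which 76 were scored, translate the mitochondrially encoded subunits. As deposited, 49 were higher with J147, 26 lower and 1 identical, so that 64.5% were higher, against 38.8% of all scored genes. Of all 10611 scored genes, however, 1555 were identical. Among the 998 scored genes within the interquartile range of the subunit levels, 49.8% were higher and 37 were identical. That range was not matched to the ribosomal proteins. Their median was 0.02 after scaling, and the largest differences were those of Mrps18b and Mrps18a, both 0.21. By plain _at probe sets 41 of 60 were higher, 68.3%, against 38.8% of all 9182 genes read in that way. The vacuolar ATPase, a rotary proton pump of lysosomes related in build to ATP synthase, had the opposite sign: 12 of 14 scored genes were lower, 85.7%, against 46.6% of all scored genes, with a median of -0.08. Atp6v0e2 was 1.57-fold lower, from 2473 to 1574, the 1 gene of this list past 1.5-fold, where 0.81% of all scored genes were as low. By plain _at probe sets 9 of 12 were lower, 75%, against 45.0% of all genes. Of the 5 complexes none had a median as far from 0 as the vacuolar ATPase. Neither the shift of the ribosomal proteins nor that of the vacuolar ATPase has a replicate check.

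**Figure D4:**
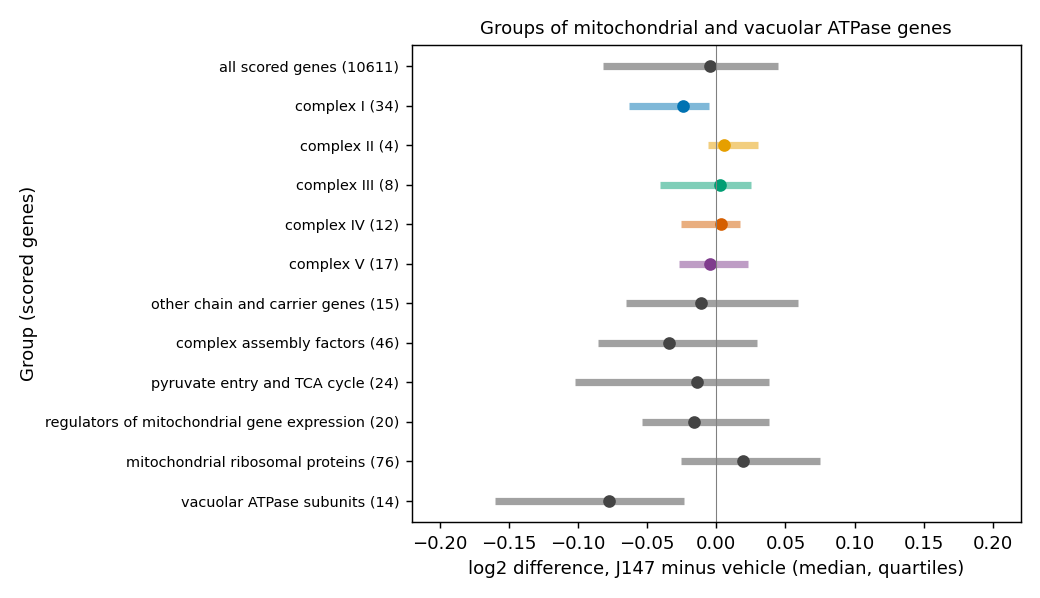
Median (points) and quartiles (bars) of the log2 difference, J147 minus vehicle (horizontal axis), over the scored genes of each group (vertical axis, number of genes in parentheses), 1 array per condition; the bars show the spread over genes and not over replicates. Medians run from -0.08 for the vacuolar ATPase to 0.02 for mitochondrial ribosomal proteins, and all scored genes have -0.0046.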

How the data were processed

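RNA of HT22 cells given J147 or vehicle for 1 h was measured on 1 Affymetrix mouse genome GeneChip each. The authors made log2 intensities with gcRMA and deposited them, and Affymetrix Expression Console 1.0 is named in the submitters' processing notes. For gcRMA, a version was not given in the sources used here. Of 45037 probe sets that are not controls, a single symbol was annotated to 34945, several to 932 and none to 9160. After scaling to a median of 100, 22545 probe sets had a mean over 100 and were scored. At the lowest value of the table lay 46.3% of probe sets for vehicle and 46.0% for J147, where a change cannot be seen. Called means at least 1.5-fold different; this is a size and not a test, and the number of arrays limits the precision. The spread around a difference is that of its 500 neighbours in mean level.

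The genes and lists were chosen with earlier results of these data known. Genes named are those past 1.5-fold, the 3 largest differences of each complex, core subunits, tissue isoforms, genes whose probe sets differ by 0.3 log2 units or more, and of other lists the 2 largest differences or those past 1.5-fold. Alternatives were other scalings, a pseudocount of 50, other filters, other probe sets and other thresholds. Python 3.11.15, numpy 2.4.6, pandas 2.3.3, statsmodels 0.14.6 and matplotlib 3.10.9 were used, and the scripts were tested on simulated data.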

Additional observations from a re-analysis of the deposited data

How the results depend on the processing

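For counts and single genes, the alternatives gave 361 values, of which 344 were close to those reported, 17 moved and 0 changed the sign of a called value. Close means within 1.5 times for counts and within the SD of the 500 nearest probe sets for a gene. Many of the single-gene values could not move. Other filters left the brightest probe set of each named gene in place, and for a gene with 1 scored probe set the mean is that probe set. For most named genes the SD was also larger than the difference itself, so being close shows little of their stability. Cox7c was the 1 gene called, so no other gene could count as a change of sign. The medians of the complexes are smaller than the SD over their genes, 0.04 to 0.29, so that scale shows nothing of their stability. With a threshold of 2-fold, 0 genes and 0 probe sets were higher. With 1.2-fold, 2 genes were higher, and 2 probe sets were lower. With plain _at probe sets alone, 1 probe set was higher, because the other of Cox7c was left out. Cox7c was the 1 gene past 1.5-fold under each scaling, filter and choice of probe sets, with log2 differences from 0.72 to 1.00. The complex medians lay between -0.03 and 0.02, and their signs changed for complexes II to V. Identical deposited values come out at -0.0046. The median of complex V as reported was at this value, and that of complex IV without a filter. With plain _at probe sets alone the median of complex I was also -0.0046, a deposited difference of 0. Over the same 27 genes read by the brightest probe set it was -0.02, a choice made after seeing the data. Of the values that moved, 12 were single genes under another choice of probe sets, an alternative chosen for single genes after seeing the data. Among these, Cox6c ranged from -0.21 to 0.03 and Ndufa5 from -0.21 to -0.0046, and Uqcrb and Atp5c1 also had another sign under such a choice. No paired analysis was possible because there is 1 array per condition.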
